A study of Mus musculus with 6 samples.

Results

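The Rab GTPases are the small GTP-binding proteins that mark the membranes of the secretory and endocytic routes, and their transcripts were followed here through 3 populations of cultured mouse bone marrow cells. Members were genes whose annotated symbol was Rab, a number and at most 2 further letters or digits. Of 62 symbols of that form, Rab3ip, Rab5if and Rab10os were left out because they do not encode Rab GTPases, which left 59 Rab genes among 19938 genes with a probe set of their own. Each gene was read from 1 probe set, the one with the highest mean signal, and 3 members (Rab2a, Rab5b and Rab11b) had more than 1 to choose from.

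Marrow cells of C57BL/6J mice, all labelled male and 6 to 10 weeks old, were cultured for 7 days. Cells given 25 ng/ml GM-CSF for the whole culture were sorted into dendritic cells with high MHCII and low F4/80 surface protein (GM-BMDC) and macrophages with low MHCII and high F4/80 (GM-BMM). Cells given 20% medium conditioned by L cells, a fibroblast line that supplies M-CSF, were sorted as CD11b+ F4/80+ macrophages (M-BMM). No genetic change was labelled in any group, and the conditioned medium is not purified M-CSF. Each population was measured on 2 arrays, from 300 ng of total RNA each, so GM-BMDC and GM-BMM share their growth factor and differ in the sorting gate, whereas M-BMM differs from both in growth factor and in gate. The labels call the arrays biological replicates without saying how many mice or cultures stand behind each, so the p-values below measure only the spread between arrays, which may be technical. In such bulk RNA, fewer cells of a type and less RNA per cell cannot be told apart.

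A Rab protein is active when it carries GTP and inactive when it carries GDP. Guanine nucleotide exchange factors (GEFs) load GTP and so recruit the Rab to a membrane, GTPase-activating proteins (GAPs) end the active state, and GDP dissociation inhibitors carry the inactive, prenylated protein through the cytosol. In macrophages and dendritic cells a phagosome matures as Rabs of the early endosome give way to Rabs of the late endosome and lysosome, and Rabs of recycling and secretory membranes serve antigen presentation, receptor return and granule release.

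Values are log2 array signals, so a difference of 1 is a 2-fold change, and signals of different genes are not compared because each probe set has its own response. Before the Rab genes, 1 disagreement with the labels has to be stated. Although every array was labelled male, Xist, the RNA of the inactive X chromosome, was high in both GM-BMDC samples (11.66 and 10.68) and in the first GM-BMM sample (11.58), and low in the second (4.93) and in both of M-BMM (4.53 and 4.80). The Y-linked gene Eif2s3y was low on the arrays numbered 1 of GM-BMDC (3.94) and of GM-BMM (3.66), and lay between 8.80 and 9.32 on the other arrays, so GM-BMDC replicate 2 carried both RNAs. Counts of Rab genes are therefore also given without the GM-CSF arrays of low Y-linked signal, and with Y-linked signal as a covariate. Neither deals with Xist, which was high on both GM-BMDC arrays and low on both M-BMM arrays. Population and Xist signal cannot be told apart in GM-BMDC against M-BMM. The dendritic cell markers went with the sorted identities, and the macrophage markers did so in part. All 11 dendritic cell markers measured were higher in GM-BMDC than in GM-BMM and than in M-BMM. Their list means per array were 9.67 to 9.92 in GM-BMDC, 6.81 to 6.89 in GM-BMM and 6.22 to 6.25 in M-BMM. Of these markers, 3 (Ccr7, Itgax and Irf4) were also higher and 1 (Cd83) lower in GM-BMM than in M-BMM. Of 11 macrophage markers, which averaged 9.92 to 10.7 in GM-BMDC, 11.1 to 11.3 in GM-BMM and 11.2 in M-BMM, 4 were lower in GM-BMDC than in GM-BMM and 3 lower than in M-BMM. The remaining macrophage markers were not called in these comparisons. Markers of other cells also moved. The 5 B lymphocyte markers averaged 6.25 to 7.07 in GM-BMDC, 5.41 to 5.50 in GM-BMM and 6.09 to 6.21 in M-BMM, with 3 (Cd79a, Ms4a1 and Ebf1) higher in GM-BMDC than in GM-BMM. Cd79b went the other way, and was 4.85-fold lower in GM-BMDC than in M-BMM (limma adjusted p = 0.00343). The 4 platelet markers averaged 7.83 to 8.0, 8.60 to 9.24 and 7.48 to 7.75 in the same order, and 4 of 5 T and NK cell markers were low on every array. The 9 neutrophil markers averaged 6.11 to 6.16, 6.11 to 6.74 and 6.22 to 6.25. The 2 eosinophil markers averaged 6.18 to 6.37, 5.56 to 6.43 and 5.33 to 5.66. The 7 mast cell and basophil markers averaged 4.94 to 4.99, 4.69 to 4.97 and 4.69 to 4.77. In the platelet, neutrophil, eosinophil, and mast cell and basophil lists, GM-BMM replicate 1 averaged above replicate 2. In the B lymphocyte list and the T and NK cell list it averaged below. The part of any of these cells in the Rab results was not tested.

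Most Rab genes read above a low-signal limit in every group, and most had group means within 0.5 log2 units of each other. Their median spread was nevertheless wider than that of all genes. The files mark no background, so low signal was taken as a group mean under 5.04, the 25th percentile of all probe set values. In every group 54 of 59 members were above this limit, which is not a detection limit and does not show expression. Rab3b, Rab3c and Rab27b were low in all 3 populations, with arrays between 4.27 and 4.92, and Rab30 and Rab39b were low in both macrophage populations. The span between the highest and the lowest group mean had a median of 0.38 over the 59 members, with an interquartile range of 0.24 to 0.64, beside 0.25 over all genes. It reached 1 in 6 of 59 members and was under 0.5 in 38, beside 1881 and 15248 of 19938 genes. The gap between the replicate arrays of a group over the members had a median of 0.15 for GM-BMDC, 0.12 for GM-BMM and 0.097 for M-BMM. M-BMM had the highest mean in 24 members, GM-BMM in 19 and GM-BMDC in 16. The heat map of the 59 genes shows each array against the gene's own mean.

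**Figure D1:**
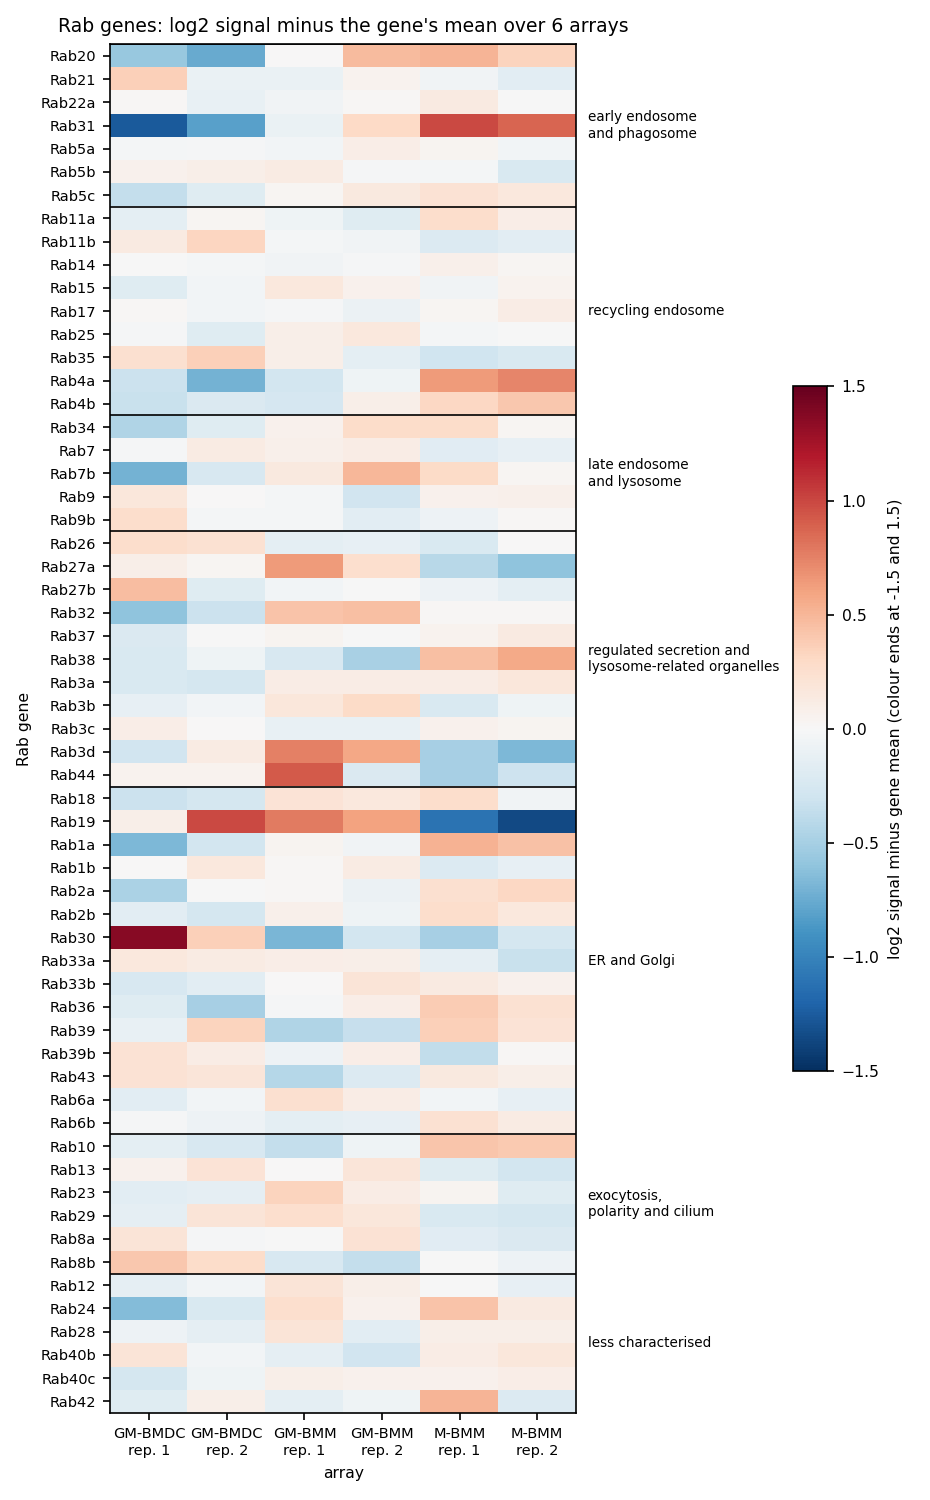
Heat map of the 59 Rab genes (rows, ordered by role) on the 6 arrays (columns), where the colour is each gene's log2 signal minus its own mean over the 6 arrays. Rab31 is lowest on both GM-BMDC arrays and highest on both M-BMM arrays, Rab19 is lowest on both M-BMM arrays, and most rows are pale.

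The test was limma's moderated test over all 19938 genes, with Benjamini-Hochberg adjustment and a threshold of 0.05, and "higher" and "lower" below mean past it. Between GM-BMDC and GM-BMM, which shared GM-CSF, 8 of 59 Rab genes differed (13.6%, beside 10.4% of all genes), 3 higher (Rab8b, Rab30 and Rab43) and 5 lower (Rab3d, Rab7b, Rab20, Rab31 and Rab32) in GM-BMDC. Between the GM-BMM and M-BMM macrophages, 7 differed (11.9%, beside 6.19%), 3 higher (Rab3d, Rab19 and Rab27a) and 4 lower (Rab4a, Rab10, Rab31 and Rab38) in GM-BMM. Between GM-BMDC and M-BMM, 17 differed (28.8%, beside 16.7%), 4 higher (Rab19, Rab27a, Rab30 and Rab35) and 13 lower (Rab1a, Rab2b, Rab3a, Rab4a, Rab4b, Rab5c, Rab10, Rab20, Rab24, Rab31, Rab32, Rab36 and Rab38) in GM-BMDC. Of all genes called between the macrophages, 58.5% were higher in GM-BMM, and 46.3% after the arrays were scaled to a common median and spread, where the members numbered 3 higher and 5 lower. The backgrounds by direction were 4.69% higher and 5.74% lower, 3.62% and 2.57%, and 7.76% and 8.9%, in the same order, and serve for the role groups below too. Among the 16249 genes that were not low everywhere, tested alone, 13.8%, 8.18% and 21.8% passed, so the members' 13.6% in the first comparison lies at its background. The median difference over the members was -0.12, -0.027 and -0.077, beside 0.016, -0.020 and -0.0024 over all genes. Each pair of comparisons shares a population, so the 3 counts are not independent.

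**Figure D2:**
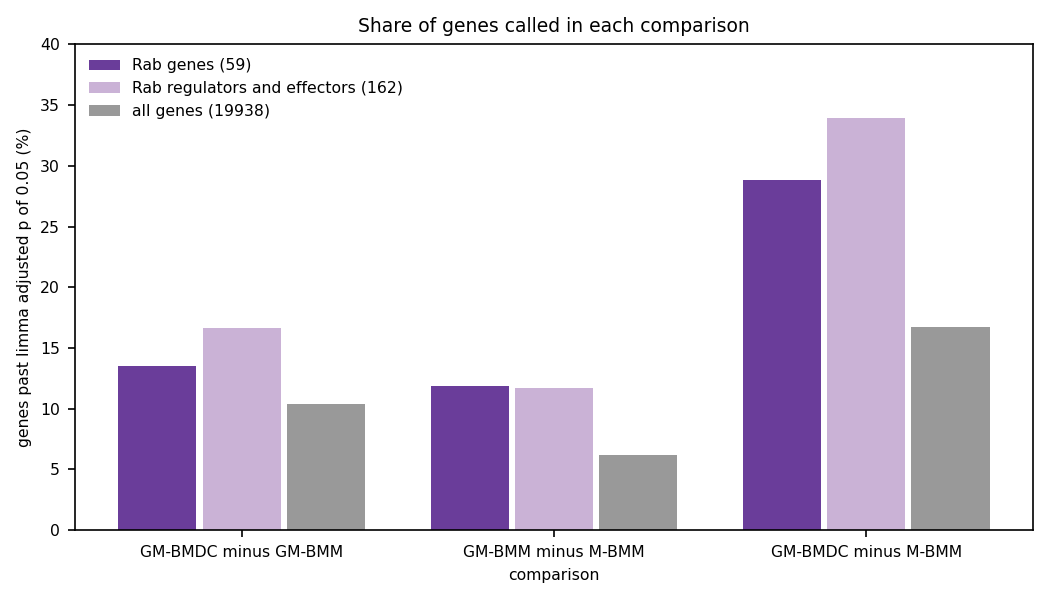
Percentage of Rab genes (59) and of all genes (19938) past limma's adjusted p of 0.05, as bars for each comparison, with the 162 regulators and effectors of Rabs between them. The Rab bars read 13.6%, 11.9% and 28.8%, the regulators 16.7%, 11.7% and 34.0%, and all genes 10.4%, 6.19% and 16.7%.

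These counts changed when arrays were left out. A fit without 1 array has less to estimate the spread from. In each such fit named in this paragraph, calls over all genes fell too. M-BMM values do not enter the difference between GM-BMDC and GM-BMM, so leaving out an M-BMM array there changes only the estimate of the spread. In GM-BMDC against GM-BMM, higher and lower members numbered 1 and 2 (Rab8b, then Rab31 and Rab32) without either M-BMM array, 1 and 1 without GM-BMDC replicate 1, and 1 and 4 or 1 and 3 without GM-BMM replicate 1 or 2. Between the macrophages, 0 Rab genes passed limma's adjusted test without M-BMM replicate 1 or without M-BMM replicate 2, where 14 had an unadjusted p under 0.05 in limma, and 1 was lower without GM-BMM replicate 1. In GM-BMDC against M-BMM, the counts were 2 and 5 without GM-BMDC replicate 1, 1 and 2 without M-BMM replicate 1, and 0 and 4 without M-BMM replicate 2. Without both GM-CSF arrays numbered 1, the arrays with low Y-linked signal, higher and lower numbered 1 and 4, 3 and 4, and 5 and 8 in the 3 comparisons. With Y-linked signal as a covariate they numbered 3 and 5, 3 and 1, and 1 and 5. Over all genes, 975 and 1258, 597 and 302, and 1085 and 1029 were then called. Without the covariate these were 935 and 1144, 722 and 513, and 1548 and 1775. The covariate ended 14 of the 32 Rab calls. Between the macrophages these were Rab4a, Rab10 and Rab31. In GM-BMDC against M-BMM they were Rab2b, Rab3a, Rab4b, Rab5c, Rab10, Rab24, Rab27a, Rab30, Rab32, Rab35 and Rab36. Only 3 of 32 calls held in every setting that kept limma's moderation, namely Rab32 lower in GM-BMDC than in GM-BMM, and Rab31 and Rab4a lower in GM-BMDC than in M-BMM. On all 32 called differences, the arrays of the groups did not overlap, which adds nothing to the calls with 2 arrays a group. Uncalled differences often did not overlap either, such as those of Rab11b and Rab12 between GM-BMDC and GM-BMM. The share over all genes was not counted.

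The early endosome and phagosome Rabs held the member with the widest fall. Of 7, 2 were lower in GM-BMDC than in GM-BMM, 1 was lower in GM-BMM than in M-BMM, and 3 were lower in GM-BMDC than in M-BMM. Rab31 (Rab22b), a relative of Rab5 that acts between the trans-Golgi network and endosomes, read 9.35 and 9.80 in GM-BMDC, 10.52 and 10.91 in GM-BMM, and 11.60 and 11.48 in M-BMM. The populations were stepped with no overlap, lowest in dendritic cells and highest in M-BMM. Rab31 was 3.91-fold lower in GM-BMDC than in M-BMM (-1.97 ± 0.19 SE on the log2 scale, n = 2 arrays a group here and throughout, limma adjusted p = 0.000616), 2.20-fold lower in GM-BMDC than in GM-BMM (-1.14 ± 0.19, limma adjusted p = 0.0104) and 1.78-fold lower in GM-BMM than in M-BMM (-0.83 ± 0.19, limma adjusted p = 0.0487). It was the only Rab gene past the threshold in all 3 comparisons. The second of these ended at a limma adjusted p of 0.0503 without GM-BMDC replicate 1, and the third at 0.197 to 0.275 without GM-BMM replicate 1, M-BMM replicate 1 or M-BMM replicate 2.

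Rab20, a Rab of phagosomes and macropinosomes in macrophages, read 7.62 and 7.43 in GM-BMDC, 8.20 and 8.67 in GM-BMM, and 8.70 and 8.52 in M-BMM. Dendritic cells were below every macrophage array, and the macrophage populations overlapped. Rab20 was 2.12-fold lower in GM-BMDC than in M-BMM (-1.08 ± 0.17 SE, limma adjusted p = 0.00547) and 1.88-fold lower than in GM-BMM (-0.91 ± 0.17, limma adjusted p = 0.0173), whereas GM-BMM and M-BMM differed by -0.17 (limma adjusted p = 0.696). The first call was lost without M-BMM replicate 1 (limma adjusted p = 0.0669), and the second without any 1 array other than GM-BMM replicate 1 (0.0511 to 0.0694). Rab5c, 1 of the 3 Rab5 isoforms that drive early endosome fusion, was 1.37-fold lower in GM-BMDC (mean 10.83 ± 0.13 SD) than in M-BMM (11.29 ± 0.04 SD, limma adjusted p = 0.0379), a call lost without GM-BMDC replicate 1 or either M-BMM array (limma adjusted p = 0.134 to 0.194). Rab5a, the isoform most often used as the early endosome marker, read 9.27 and 9.27 in GM-BMDC, 9.25 and 9.40 in GM-BMM, and 9.33 and 9.25 in M-BMM. Its populations overlapped, and the differences were -0.053, 0.033 and -0.021 (limma adjusted p = 0.853, 0.932 and 0.941). Rab5b, Rab21 and Rab22a did not pass the test in any comparison, with differences between -0.12 and 0.23.

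**Figure D3:**
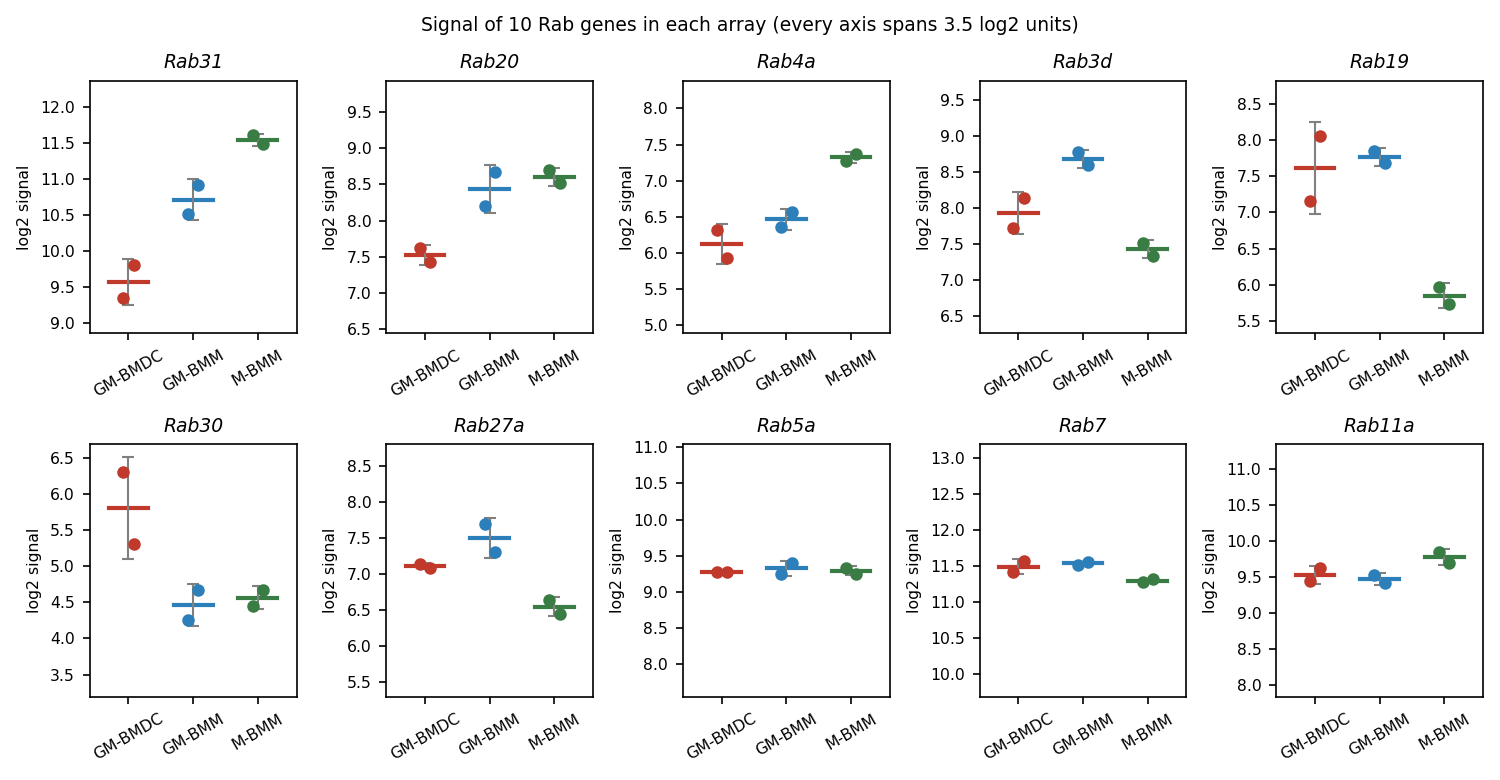
Log2 signal of 10 Rab genes on each of the 6 arrays, as points by population, with a line at each population's mean of 2 arrays and a bar of 1 SD. All axes span the same number of log2 units. Rab31 steps up from GM-BMDC to M-BMM, Rab19 is low only on the M-BMM arrays, Rab30 is high only on the GM-BMDC arrays, and Rab5a, Rab7 and Rab11a are nearly level.

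Among 9 recycling endosome Rabs, 0 passed limma's adjusted test between GM-BMDC and GM-BMM (1 at an unadjusted p under 0.05), 1 was lower in GM-BMM than in M-BMM, and 1 was higher and 2 lower in GM-BMDC than in M-BMM. Rab4a, which returns receptors from the early endosome to the surface by the fast route, read 6.32 and 5.92 in GM-BMDC, 6.36 and 6.56 in GM-BMM, and 7.27 and 7.37 in M-BMM. Both M-BMM arrays were above all 4 GM-CSF arrays. Rab4a was 2.30-fold lower in GM-BMDC (-1.20 ± 0.16 SE, limma adjusted p = 0.0022) and 1.81-fold lower in GM-BMM (-0.86 ± 0.16, limma adjusted p = 0.0207) than in M-BMM, and the GM-CSF populations differed by -0.34 (limma adjusted p = 0.249). The call in GM-BMM was lost without GM-BMM replicate 1 or either M-BMM array (limma adjusted p = 0.0966 to 0.181). Rab4b, its close relative, was 1.55-fold lower in GM-BMDC (9.05 ± 0.09 SD) than in M-BMM (9.69 ± 0.07 SD, limma adjusted p = 0.0217), and Rab35, which acts in fast recycling and at the plasma membrane, was 1.48-fold higher (10.23 ± 0.08 against 9.66 ± 0.04 SD, limma adjusted p = 0.0216). Rab4b lost its call without GM-BMDC replicate 1 or either M-BMM array (limma adjusted p = 0.107 to 0.135), and Rab35 without any of the 4 arrays compared (0.0588 to 0.143).

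Rab11a, the marker of the slow recycling endosome, read 9.44 and 9.62 in GM-BMDC, 9.53 and 9.42 in GM-BMM, and 9.85 and 9.70 in M-BMM. The M-BMM arrays were the highest, but differences of 0.060, -0.30 and -0.24 did not pass (limma adjusted p = 0.850, 0.238 and 0.261). Its paralog Rab11b missed the threshold with a difference of 0.41 between GM-BMDC and M-BMM (limma adjusted p = 0.0515). The other probe set went the same way there, at 7.09 and 7.05 in GM-BMDC and 6.63 and 6.70 in M-BMM. The choice of probe set mattered for GM-BMM. On the probe set used, its replicates stood close at 10.60 and 10.58, between the other populations. On the other probe set they stood apart at 6.55 and 5.83, below both M-BMM arrays. Rab14, Rab15, Rab17 and Rab25 did not pass in any comparison.

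The 5 late endosome and lysosome Rabs showed 1 call in all. Rab7, which directs fusion of late endosomes and phagosomes with lysosomes, read 11.41 and 11.56 in GM-BMDC, 11.51 and 11.55 in GM-BMM, and 11.27 and 11.31 in M-BMM. Both M-BMM arrays were the lowest, by differences of 0.24 from GM-BMM and 0.20 from GM-BMDC that did not pass (limma adjusted p = 0.301 and 0.313), and the GM-CSF populations overlapped. Rab7b, a separate GTPase that controls transport from late endosomes to the trans-Golgi network and is expressed in monocytic cells, was 1.74-fold lower in GM-BMDC (8.84 ± 0.33 SD) than in GM-BMM (9.63 ± 0.25 SD, limma adjusted p = 0.0452). Its lowest array was GM-BMDC replicate 1 at 8.60, and the call was lost without that array, GM-BMM replicate 2 or either M-BMM array (limma adjusted p = 0.0939 to 0.207). Rab9, Rab9b and Rab34 were not called, with Rab34 at -0.49 between GM-BMDC and GM-BMM (limma adjusted p = 0.0911).

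Rabs of regulated secretion and lysosome-related organelles differed in several directions. Of 11, 2 were lower in GM-BMDC than in GM-BMM, 2 were higher and 1 lower in GM-BMM than in M-BMM, and 1 was higher and 3 lower in GM-BMDC than in M-BMM. Rab3d, a Rab of secretory granules, read 7.72 and 8.14 in GM-BMDC, 8.77 and 8.60 in GM-BMM, and 7.51 and 7.34 in M-BMM. The GM-BMM arrays were the highest without overlap. Rab3d was 2.39-fold higher in GM-BMM than in M-BMM (1.26 ± 0.16 SE, limma adjusted p = 0.00501) and 1.69-fold lower in GM-BMDC than in GM-BMM (-0.75 ± 0.16, limma adjusted p = 0.0276), and the difference of 0.50 between GM-BMDC and M-BMM missed the threshold (limma adjusted p = 0.0822). Without M-BMM replicate 1 or 2 the first stood at 0.0501 and 0.0793 in limma, and the second was lost without any 1 array other than GM-BMDC replicate 2 (0.0615 to 0.121). Of the 4 platelet markers, Pf4 and Ppbp were also higher and Gp9 was lower in GM-BMM than in M-BMM, and their part in this result was not tested.

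Rab27a, which tethers lysosome-related organelles and exosome-bearing endosomes near the plasma membrane, read 7.13 and 7.07 in GM-BMDC, 7.69 and 7.30 in GM-BMM, and 6.64 and 6.45 in M-BMM. All GM-CSF arrays were above both M-BMM arrays. It was 1.94-fold higher in GM-BMM than in M-BMM (0.95 ± 0.15 SE, limma adjusted p = 0.0121) and 1.48-fold higher in GM-BMDC than in M-BMM (0.56 ± 0.15, limma adjusted p = 0.0456), and the GM-CSF populations differed by -0.39 (limma adjusted p = 0.179). The first call was lost without either M-BMM array (limma adjusted p = 0.0804 and 0.134) and the second without any of the 4 arrays compared (0.107 to 0.230). Its paralog Rab27b was low on every array.

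Rab32 and Rab38, which share the biogenesis of melanosomes and other lysosome-related organelles, did not follow one another. Rab32 read 8.72 and 9.0 in GM-BMDC, 9.76 and 9.77 in GM-BMM, and 9.34 and 9.34 in M-BMM, so it was lowest in dendritic cells and highest in GM-BMM without overlap. It was 1.87-fold lower in GM-BMDC than in GM-BMM (-0.90 ± 0.13 SE, limma adjusted p = 0.00505), and 1.39-fold lower than in M-BMM (-0.48, limma adjusted p = 0.0416), and GM-BMM and M-BMM were not called different (limma adjusted p = 0.113). The larger difference held without each array in turn, and the smaller was lost without any 1 array other than GM-BMDC replicate 2 (limma adjusted p = 0.0562 to 0.188). Rab38 read 5.79 and 5.95 in GM-BMDC, 5.78 and 5.52 in GM-BMM, and 6.47 and 6.59 in M-BMM. Here the M-BMM arrays stood above all others, and the GM-CSF populations overlapped. Rab38 was 1.84-fold lower in GM-BMM (-0.88, limma adjusted p = 0.00976) and 1.58-fold lower in GM-BMDC (-0.66, limma adjusted p = 0.0147) than in M-BMM, and lost both calls without either M-BMM array, the second also without GM-BMDC replicate 1 (limma adjusted p = 0.0785 and 0.111 for the first, 0.0772 to 0.108 for the second). Rab3a, a synaptic vesicle Rab, was 1.31-fold lower in GM-BMDC than in M-BMM (limma adjusted p = 0.0443), a call that leaving out any 1 of the 6 arrays ended (0.0608 to 0.192). Rab44, a large Rab with an EF-hand domain, read 7.88 and 6.75 on the GM-BMM arrays, and was not called.

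Promoter sequence is shown for the members higher in GM-BMM than in M-BMM (Rab3d, Rab19 and Rab27a) and for Rab20 and Rab32, members lower in GM-BMDC than in GM-BMM whose promoters held a searched motif. RefSeq sequence of build GRCm38.p6 gave 60 promoters for 48 of the 59 members, each 300 bases from 250 before to 50 after a transcript start, written 5′ to 3′ along the gene. Capitals mark the letters CACGTG (the E-box bound by the TFE3 and MITF family of lysosomal gene regulators, the same on both strands) and GAGGAA or its reverse complement TTCCTC (a core of sites of PU.1, the myeloid lineage factor). No marked match overlaps another.
Rab3d (chr9:21918134-21918433, minus strand): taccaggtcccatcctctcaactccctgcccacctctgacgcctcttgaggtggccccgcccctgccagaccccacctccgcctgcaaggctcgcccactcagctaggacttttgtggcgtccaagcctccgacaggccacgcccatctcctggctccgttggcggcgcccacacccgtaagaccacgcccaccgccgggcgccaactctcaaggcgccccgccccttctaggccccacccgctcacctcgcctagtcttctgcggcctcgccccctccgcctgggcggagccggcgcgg
Rab19 (chr6:39381103-39381402, plus strand): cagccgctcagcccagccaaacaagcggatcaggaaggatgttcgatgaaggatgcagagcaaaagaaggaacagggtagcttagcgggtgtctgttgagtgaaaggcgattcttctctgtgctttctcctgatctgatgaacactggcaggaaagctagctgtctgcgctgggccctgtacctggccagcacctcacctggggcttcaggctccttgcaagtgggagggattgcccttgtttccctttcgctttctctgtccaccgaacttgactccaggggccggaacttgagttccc
Rab27a, first start (chr9:73044560-73044859, plus strand): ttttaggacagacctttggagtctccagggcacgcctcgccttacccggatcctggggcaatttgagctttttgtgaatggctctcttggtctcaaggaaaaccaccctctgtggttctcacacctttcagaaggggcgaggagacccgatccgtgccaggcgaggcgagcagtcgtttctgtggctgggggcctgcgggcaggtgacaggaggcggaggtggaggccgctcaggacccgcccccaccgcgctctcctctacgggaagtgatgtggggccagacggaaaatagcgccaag
Rab27a, second start (chr9:73063898-73064197, plus strand): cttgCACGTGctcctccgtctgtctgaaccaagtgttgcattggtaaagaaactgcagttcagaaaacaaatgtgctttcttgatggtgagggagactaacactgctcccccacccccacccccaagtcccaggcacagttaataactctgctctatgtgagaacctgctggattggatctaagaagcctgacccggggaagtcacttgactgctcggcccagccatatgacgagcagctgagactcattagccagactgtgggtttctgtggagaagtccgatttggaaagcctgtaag
Rab20 (chr8:11478591-11478890, minus strand): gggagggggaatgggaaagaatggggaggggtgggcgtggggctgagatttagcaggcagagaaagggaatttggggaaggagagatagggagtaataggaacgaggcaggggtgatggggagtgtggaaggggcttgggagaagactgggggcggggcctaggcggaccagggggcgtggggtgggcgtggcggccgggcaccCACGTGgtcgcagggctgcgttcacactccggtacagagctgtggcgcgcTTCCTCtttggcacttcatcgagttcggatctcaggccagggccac
Rab32 (chr10:10558158-10558457, minus strand): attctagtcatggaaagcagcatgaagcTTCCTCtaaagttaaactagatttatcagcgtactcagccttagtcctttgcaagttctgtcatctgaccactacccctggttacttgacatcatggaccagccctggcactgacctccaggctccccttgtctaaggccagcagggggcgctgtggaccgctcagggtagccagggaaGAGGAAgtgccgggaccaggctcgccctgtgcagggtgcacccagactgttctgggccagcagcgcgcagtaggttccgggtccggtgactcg
The E-box was present in the second Rab27a promoter and in that of Rab20, and the PU.1 core in those of Rab20 and Rab32, on both strands in Rab32. Over the family, 6 of 60 promoters (10.0%) held the E-box, beside 7.15% of all 32851 promoters in the table, and 11 of 60 (18.3%) held the PU.1 core, beside 28.3%. These matches describe the letters in the window and were not set against binding data.

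The ER and Golgi Rabs included the widest differences of the family after Rab31. Of 15, 2 were higher in GM-BMDC than in GM-BMM, 1 was higher in GM-BMM than in M-BMM, and 2 were higher and 3 lower in GM-BMDC than in M-BMM. Rab19, a Golgi Rab close to Rab43 and Rab30, read 7.16 and 8.06 in GM-BMDC, 7.86 and 7.68 in GM-BMM, and 5.97 and 5.73 in M-BMM. Every GM-CSF array was more than 1 log2 unit above both M-BMM arrays, and the GM-CSF populations overlapped. Rab19 was 3.79-fold higher in GM-BMM (1.92 ± 0.27 SE, limma adjusted p = 0.00688) and 3.40-fold higher in GM-BMDC (1.77 ± 0.27, limma adjusted p = 0.00435) than in M-BMM, with -0.16 between the GM-CSF populations (limma adjusted p = 0.814). The first call was lost without either M-BMM array (limma adjusted p = 0.0692 and 0.0989) and the second without M-BMM replicate 2 (0.0559).

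Rab30, a Golgi Rab also found at autophagosomes that engulf bacteria, read 6.31 and 5.31 in GM-BMDC, 4.26 and 4.67 in GM-BMM, and 4.45 and 4.68 in M-BMM. Both GM-BMDC arrays were above all macrophage arrays, which were low, and the GM-BMDC replicates stood far apart. Rab30 was higher in GM-BMDC than in GM-BMM, by a signal difference of 1.34 ± 0.31 SE (limma adjusted p = 0.034), and higher than in M-BMM, by 1.24 ± 0.31 (limma adjusted p = 0.0317). Both macrophage means were under the low-signal limit of 5.04, where the files do not tell signal from background, so these are differences in array signal and no fold is given. Without GM-BMDC replicate 1 these differences came to 0.84 and 0.74 and were no longer called, and each call was also lost without either M-BMM array, the first without either GM-BMM array too (limma adjusted p = 0.0597 to 0.130 and 0.0825 to 0.202). Of the 5 B lymphocyte markers, Cd79a and Ms4a1 were also higher in GM-BMDC than in either macrophage population, Ebf1 was higher than in GM-BMM, and Cd79b was lower than in M-BMM, and their part in this difference was not tested.

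Rab1a, which carries transport from the ER to the Golgi, had a mean of 11.85 ± 0.06 SD in M-BMM, 11.37 ± 0.07 SD in GM-BMM and 10.90 ± 0.28 SD in GM-BMDC. It was 1.93-fold lower in GM-BMDC than in M-BMM (-0.95 ± 0.15 SE, limma adjusted p = 0.00509, and 0.0606 without M-BMM replicate 1), and GM-BMM was not called different from either (limma adjusted p = 0.108 against GM-BMDC and 0.120 against M-BMM). Its paralog Rab1b was not called, at 0.24 in the same comparison (limma adjusted p = 0.233). Rab43, a Golgi Rab that serves cross-presentation in dendritic cells, read 8.83 and 8.79 in GM-BMDC, 8.19 and 8.41 in GM-BMM, and 8.76 and 8.71 in M-BMM, and was 1.43-fold higher in GM-BMDC than in GM-BMM (0.51, limma adjusted p = 0.0373). The GM-BMM arrays were the lowest, but their difference from M-BMM was not called (limma adjusted p = 0.0887), and GM-BMDC and M-BMM differed by 0.077 (limma adjusted p = 0.760). The Rab43 call was lost without any 1 array other than GM-BMM replicate 2 (limma adjusted p = 0.0870 to 0.150). Rab2b and Rab36 were 1.34-fold and 1.56-fold lower in GM-BMDC than in M-BMM (limma adjusted p = 0.049 and 0.0202), and neither call held without either M-BMM array (0.0564 to 0.245 for Rab2b, lost without any 1 of the 6 arrays, and 0.0780 to 0.151 for Rab36, lost also without GM-BMDC replicate 2). Rab2a, Rab6a, Rab6b, Rab18, Rab33a, Rab33b, Rab39 and Rab39b were called in no comparison, and Rab39 came nearest at -0.68 between GM-BMM and M-BMM (limma adjusted p = 0.0590).

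Of 6 Rabs of exocytosis, polarity and the cilium, 1 was higher in GM-BMDC than in GM-BMM, and 1 was lower in each of GM-BMM and GM-BMDC than in M-BMM. Rab8b, which delivers Golgi and recycling vesicles to the surface and also takes part in autophagosome maturation, read 11.70 and 11.57 in GM-BMDC, 11.05 and 10.94 in GM-BMM, and 11.28 and 11.22 in M-BMM. Dendritic cells were highest without overlap, by 1.56-fold over GM-BMM (0.64, limma adjusted p = 0.0132), a call lost on leaving out GM-BMDC replicate 1 (0.0736) or GM-BMM replicate 2 (0.0667). Its difference of 0.38 from M-BMM was not called (limma adjusted p = 0.0630). Rab10, which carries exocytic vesicles and recycles Toll-like receptor 4 in macrophages, read 11.28 and 11.18 in GM-BMDC, 11.07 and 11.36 in GM-BMM, and 11.85 and 11.82 in M-BMM. The M-BMM arrays stood above all 4 GM-CSF arrays, 1.53-fold over GM-BMM (limma adjusted p = 0.0362) and 1.52-fold over GM-BMDC (limma adjusted p = 0.0198). Each of these calls was lost without either M-BMM array, the first also without GM-BMM replicate 1 and the second also without either GM-BMDC array (limma adjusted p = 0.152 to 0.215 and 0.0590 to 0.128). Rab8a, Rab13, Rab23 and Rab29 were not called. Among 6 less studied members, Rab24, linked to autophagy, was 1.64-fold lower in GM-BMDC (7.78 ± 0.29 SD) than in M-BMM (8.50 ± 0.20 SD, limma adjusted p = 0.0297), a call lost without GM-BMDC replicate 1 or either M-BMM array (0.0750 to 0.205), and Rab12, Rab28, Rab40b, Rab40c and Rab42 were not called.

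**Figure D4:**
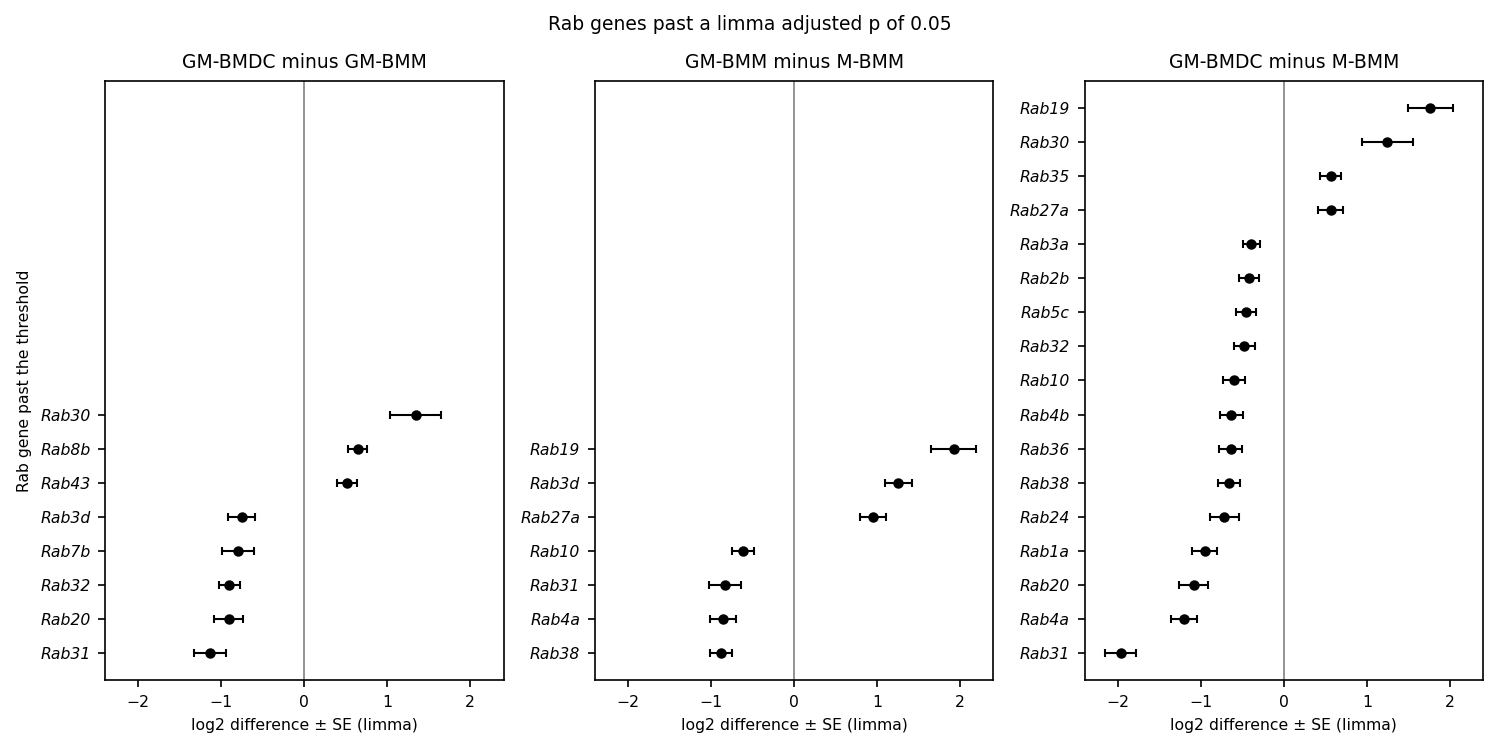
Log2 difference of each Rab gene past limma's adjusted p of 0.05, in a panel for each of the 3 comparisons (8, 7 and 17 genes), with bars of 1 SE. Rab31 lies left of 0 in every panel, and Rab19 lies farthest to the right in both comparisons with M-BMM.

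The proteins that act on Rabs were read from 9 lists holding 162 measured genes, of which 13 were higher and 14 lower in GM-BMDC than in GM-BMM (16.7%), 7 higher and 12 lower in GM-BMM than in M-BMM (11.7%), and 22 higher and 33 lower in GM-BMDC than in M-BMM (34.0%). Over all genes 10.4%, 6.19% and 16.7% passed, and 13.8%, 8.18% and 21.8% of those not low everywhere, which also serve for each list below. Among 48 GEF and TRAPP genes, the counts higher and lower were 4 and 2, 3 and 4, and 7 and 9 (12.5%, 14.6% and 33.3%). The first of these shares lies at the background. Dennd3, the exchange factor of Rab12, read 8.31 and 7.89 in GM-BMDC, 8.05 and 8.20 in GM-BMM, and 6.21 and 6.19 in M-BMM, and was 3.80-fold higher in GM-BMM than in M-BMM and 3.73-fold higher in GM-BMDC than in M-BMM (1.92 and 1.90 on the log2 scale, limma adjusted p = 0.000591 and 0.000315). Trappc2, a subunit of the TRAPP complexes that load Rab1, read 8.84 and 8.88, 9.35 and 9.59, and 11.25 and 11.10, and was 4.97-fold lower in GM-BMDC than in M-BMM (-2.31, limma adjusted p = 6.5e-05). Dennd4a, an exchange factor of Rab10, read 11.17 and 10.75, 9.89 and 9.31, and 9.04 and 9.02, and was 2.56-fold higher in GM-BMDC than in GM-BMM (1.36, limma adjusted p = 0.00806). Dennd1a, an exchange factor of Rab35, was 2.50-fold lower in GM-BMDC than in M-BMM (-1.32), and thus lay opposite to Rab35 in that comparison. Its relative Dennd1b went the other way, 2.33-fold higher in GM-BMDC than in M-BMM (1.22, limma adjusted p = 0.000876). All of these genes kept the calls named here without any 1 array.

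Among 37 GAPs, 4 were higher and 2 lower in GM-BMDC than in GM-BMM (16.2%), 4 lower in GM-BMM than in M-BMM (10.8%), and 5 higher and 6 lower in GM-BMDC than in M-BMM (29.7%). Rabgap1l read 10.04 and 9.20 in GM-BMDC, 7.17 and 5.94 in GM-BMM, and 6.99 and 6.63 in M-BMM, and was 8.38-fold higher in GM-BMDC than in GM-BMM (3.07 ± 0.41 SE, limma adjusted p = 0.00428). Dendritic cells were above all macrophage arrays without overlap. Tbc1d4 (AS160), the GAP of Rab10 and related Rabs in glucose transporter traffic, read 8.68 and 8.33, 6.75 and 6.10, and 8.02 and 7.90, with GM-BMM the low population by 4.22-fold against GM-BMDC (2.08 ± 0.22 SE). Tbc1d8 was 2.73-fold higher in GM-BMDC than in GM-BMM and 3.73-fold higher than in M-BMM. Of 6 genes for GDP dissociation inhibitors, escort proteins and prenylation, Rabac1 alone was called, in 1 comparison, 1.34-fold lower in GM-BMDC than in M-BMM (limma adjusted p = 0.0338), and not without any of the 4 arrays compared (0.0834 to 0.182). Rabgap1l, Tbc1d4 and Tbc1d8 kept the calls given here without any 1 array.

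Effectors of the early endosome were lower in dendritic cells where they were called, apart from Appl1. Of 13, 1 was higher and 4 lower in GM-BMDC than in GM-BMM, 0 passed limma's adjusted test between GM-BMM and M-BMM (4 at an unadjusted p under 0.05), and 4 were lower in GM-BMDC than in M-BMM. Eea1, the Rab5 tether of early endosomes, read 8.87 and 8.79 in GM-BMDC, 9.61 and 9.61 in GM-BMM, and 9.23 and 9.07 in M-BMM, and was 1.72-fold lower in GM-BMDC than in GM-BMM (-0.78). Of 13 late endosome and lysosome effectors, the counts higher and lower in the 3 comparisons were 1 and 2, 0 and 2, and 3 and 4 (23.1%, 15.4% and 53.8%). Plekhm1, an adaptor between Rab7 and the HOPS tethering complex, was 1.86-fold lower in GM-BMDC than in GM-BMM and 2.73-fold lower than in M-BMM. Lrrk1, a kinase that phosphorylates Rab7, was 3.12-fold and 3.84-fold higher in GM-BMDC in the same comparisons. Of 14 recycling effectors, the counts higher and lower in the 3 comparisons were 0 and 1, 1 and 1, and 2 and 2 (7.14%, 14.3% and 28.6%). Rab11fip1, a Rab11 effector of recycling, read 9.27 and 8.94 in GM-BMDC, 8.51 and 8.38 in GM-BMM, and 7.05 and 6.69 in M-BMM, and was 4.71-fold higher in GM-BMDC (2.23) and 2.98-fold higher in GM-BMM (1.58) than in M-BMM. The arrays of the 3 populations did not overlap, and Rab11fip1 was not called between GM-BMDC and GM-BMM. All calls named for Eea1, Plekhm1, Lrrk1 and Rab11fip1 held without any 1 array.

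Among 9 genes for Rab kinases, a Rab phosphatase and effectors that bind phosphorylated or Rab8-family proteins, 3 were higher and 3 lower, 3 higher and 1 lower, and 4 higher and 2 lower in the 3 comparisons. Lrrk2, the kinase of Rab8, Rab10 and Rab29, read 7.49 and 7.74 in GM-BMDC, 8.26 and 8.86 in GM-BMM, and 6.90 and 6.45 in M-BMM, highest in GM-BMM without overlap. It was 3.71-fold higher in GM-BMM than in M-BMM (1.89 ± 0.23 SE), a call lost without M-BMM replicate 2 (limma adjusted p = 0.0586). Ppm1h, the phosphatase that removes the mark Lrrk2 places, read 7.75 and 7.68, 8.36 and 8.72, and 9.38 and 9.29, and was 3.08-fold lower in GM-BMDC than in M-BMM (-1.62). Micall2, an effector of Rab8 and Rab13, read 6.99 and 7.16, 8.53 and 8.52, and 7.38 and 7.39, with GM-BMM higher by 2.72-fold than GM-BMDC and by 2.19-fold than M-BMM. Of 9 Golgi effectors, 1 was higher and 5 lower in GM-BMDC than in M-BMM, and 0 passed limma's adjusted test in the other comparisons (3 and 1 at an unadjusted p under 0.05). Of 13 secretory effectors, the synaptotagmin-like and related proteins that act with Rab3 and Rab27, 0 passed limma's adjusted test in any comparison, and 0, 1 and 0 had an unadjusted p under 0.05.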

How the data were processed

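Total RNA of 6 sorted samples was measured on 1 Affymetrix array each. Per the submitters' processing notes, the deposited log2 values came from RMA (background correction, equal distributions across arrays, probe summary) in Affymetrix Expression Console 1.1; a genome build is not given in the sources used here. The table held 35556 probe sets with no missing value and array medians of 6.18 to 6.28. The annotation paired 21789 probe sets with 1 gene, 1621 with several and 12146 with none. For each of 19938 genes the single-gene probe set with the highest mean over 6 arrays was kept, with no filter and no pseudocount.

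The 3 comparisons were fitted in 1 model over all 6 arrays (limma 3.58.1, R 4.3.3), with 3 residual and 4.34 prior degrees of freedom, and p-values were Benjamini-Hochberg adjusted over all genes at 0.05. The fit was tested on simulated data. The small number of arrays limits the precision, with a median standard error of 0.13. Members described in full were those past the threshold with a log2 difference of at least 1 in any comparison, with Rab27a, Rab5a, Rab7 and Rab11a as anchors. The Rab genes, role groups, regulator lists and marker lists were chosen with earlier results of these data known. Alternatives were each array left out, a replicate block, only the groups compared, other variance settings, a filter on low values, rescaled arrays, averaged probe sets, Y-linked signal as a covariate and the GM-CSF arrays of each number left out; a crossed block was chosen after seeing the data. Promoters came from RefSeq (GRCm38.p6); proteins were not analysed here.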

Additional observations from a re-analysis of the deposited data

How the results depend on the processing

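Of 512 values of single Rab genes under the alternatives for differences that were called, 339 stayed called in the same direction and 173 kept the direction but lost the call. With no moderation across genes, 0 Rab genes passed limma's adjusted test in any comparison, and 15, 20 and 23 had an unadjusted p under 0.05. In GM-BMDC against GM-BMM, the 3 higher and 5 lower members came to 1 and 2 when only these groups were fitted, 1 higher without both GM-CSF arrays numbered 1, 8 lower without both numbered 2, and 1 to 2 higher and 1 to 6 lower with 1 array left out. In GM-BMM against M-BMM, the 3 higher and 4 lower came to 1 lower with the Y-linked covariate, 7 lower without both arrays numbered 2, and 0 to 4 higher and 0 to 5 lower with 1 array left out. In GM-BMDC against M-BMM, the 4 higher and 13 lower came to 1 and 5 with the covariate, 8 lower without both arrays numbered 1, and 0 to 5 higher and 2 to 11 lower with 1 array left out. Fits that leave arrays out rest on fewer arrays by construction, and otherwise the cause was not tested. With arrays scaled to a common median and MAD, the share of higher calls between GM-BMM and M-BMM went from 58.5% to 46.3% of all genes called, and the members' 3 higher and 4 lower came to 3 and 5.

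Some differences that were never called changed sign. Rab5a turned to 0.029 between GM-BMDC and GM-BMM and -0.078 between GM-BMM and M-BMM when scaled, to 0.019 and -0.042 without both arrays numbered 2, and to 0.031 between GM-BMDC and M-BMM with the covariate. Between GM-BMDC and GM-BMM, Rab7 turned to 0.12 when scaled and 0.011 without both arrays numbered 1, Rab19 to 0.38 without both numbered 1, and Rab11a to -0.084 without both numbered 2. Between GM-BMM and M-BMM without both numbered 1, Rab20 turned to 0.061 and Rab30 to 0.11. With 1 array left out, Rab11a ranged from -0.027 to 0.15, Rab19 from -0.61 to 0.29, Rab5a from -0.13 to 0.021 and Rab7 from -0.12 to 0.029 between GM-BMDC and GM-BMM. Rab20 ranged from -0.41 to 0.061, Rab30 from -0.31 to 0.11 and Rab5a from -0.042 to 0.11 between GM-BMM and M-BMM, and Rab5a from -0.063 to 0.021 between GM-BMDC and M-BMM.

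Over 19938 genes the replicate differences of 2 groups correlated at 0.024, 0.026 and -0.13, which cannot show whether arrays of 1 number were paired. Eif2s3y read 3.94 and 3.66 on the GM-BMDC and GM-BMM arrays numbered 1, and 8.80 and 9.10 on those numbered 2. Whether arrays of 1 number came from the same mice or culture was not tested. With the replicate number as a block, higher and lower members numbered 2 and 5, 3 and 3, and 4 and 9, and with the M-BMM numbers crossed, added after seeing the data, 3 and 12 in GM-BMDC against M-BMM.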
